A study of Homo sapiens with 12 samples.

Results

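The primate-specific microRNA cluster of chromosome 19, C19MC, was followed in small RNA of extracellular vesicles (EV) across cardiac differentiation. Its members were the rows of the miRNA count table that held any count and matched a list of mature C19MC miRNA names, which gave 48 of 1133 rows. A few rows named for C19MC hairpins fell outside this list, and those of over 3 counts in a library are given in the closing section. Of these 48 rows, 8 join the names of several miRNA whose reads could not be separated. Small RNA was sequenced from 12 EV preparations of the established human induced pluripotent stem cell line iPS(IMR90)-4, in 4 groups of 3 independent cultures. hiPSC-EV came from undifferentiated cells in expansion medium (day 0, medium conditioned for 24 h). CPC-EV came from cardiac progenitor cells at day 6 (72 h), after treatment with CHIR99021, Activin A and ascorbic acid and then with the Wnt inhibitor IWR-1. CMi-EV came from immature cardiomyocytes, by then aggregated and kept in suspension, in maintenance medium at day 15 (48 h). CMm-EV came from such aggregates kept in galactose and fatty acid maturation medium until day 35 (48 h). Stage, day and medium changed together, as did the hours of conditioning except between CMi-EV and CMm-EV, and the step from monolayer to aggregates fell between CPC-EV and CMi-EV, so these cannot be told apart, and all libraries derive from 1 cell line.

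C19MC is found only in primates, and its hairpins arose by repeated local duplication. It is known as a placental cluster, imprinted and expressed from the paternal allele in trophoblast, and trophoblast releases its miRNA in vesicles. Its miRNA are also known from human pluripotent stem cells, where some share the seed (the bases that pair with targets) of the miR-302 and miR-372 family, which promotes the pluripotent cell cycle.

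Mature sequences are shown for the C19MC miRNA that could be tested, since their levels carry the results, with the seed (bases 2 to 8) in capitals. They were taken from the RefSeq annotation of GRCh38.p14, which held 54 of the 57 member names, and all lie on the plus strand of chromosome 19. miR-520a-5p and miR-525-5p share a seed, although they come from different hairpins.
hsa-miR-520a-5p: cUCCAGAGggaaguacuuucu
hsa-miR-525-5p: cUCCAGAGggaugcacuuucu
miR-517a-3p and miR-517b-3p have the same mature sequence and were counted in 1 joined row.
hsa-miR-517a-3p: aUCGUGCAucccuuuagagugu
hsa-miR-517b-3p: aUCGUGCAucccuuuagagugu
miR-520a-3p, from the other arm of the miR-520a hairpin, has the seed of miR-302b-3p (chromosome 4) and of its neighbour miR-372-3p.
hsa-miR-520a-3p: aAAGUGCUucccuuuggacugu
hsa-miR-302b-3p: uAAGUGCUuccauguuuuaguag
hsa-miR-372-3p: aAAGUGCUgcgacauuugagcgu
The other tested members each have a seed that no other tested member has.
hsa-miR-1323: uCAAAACUgaggggcauuuucu
hsa-miR-512-3p: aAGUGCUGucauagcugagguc
hsa-miR-516a-5p: uUCUCGAGgaaagaagcacuuuc
hsa-miR-516b-5p: aUCUGGAGguaagaagcacuuu
hsa-miR-526b-5p: cUCUUGAGggaagcacuuucugu
hsa-miR-518b: cAAAGCGCuccccuuuagaggu

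Depth differed between libraries and bears on how many C19MC rows could be seen. The miRNA counts of hiPSC-EV 1, 2 and 3 were 703418, 2511810 and 5598296. Those of the later groups ran from 1539043 to 3380609 in CPC-EV, from 1364736 to 2163511 in CMi-EV and from 984868 to 6272456 in CMm-EV. The number of C19MC rows with any count was 16, 26 and 46 in the hiPSC-EV libraries, so it was highest in the deepest one. A random draw of 703418 counts would hold 35.2 C19MC rows on average from hiPSC-EV 3 and 25.9 from hiPSC-EV 2. The 16 rows of hiPSC-EV 1 lie below both. Such a draw covers counting error only, not differences between cultures. In CPC-EV 1, 2 and 3 the number was 4, 6 and 4, and in CMi-EV it was 1, 3 and 1. CMm-EV 1 held 1 row, and CMm-EV 2, the deepest of the 12 libraries, held none, nor did CMm-EV 3. Detection of C19MC therefore did not follow depth across groups.

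The share of C19MC in the miRNA counts was highest in hiPSC-EV and lower in each later group. It was 0.433%, 0.289% and 0.225% in hiPSC-EV 1, 2 and 3 (mean 0.316% ± 0.107, SD, n = 3). In CPC-EV it was 0.0507%, 0.0583% and 0.0439% (mean 0.0509% ± 0.00718, SD, n = 3), 6.19-fold below hiPSC-EV. The groups hiPSC-EV and CPC-EV did not overlap. In CMi-EV the share was 0.00319%, 0.0108% and 0.00418% (mean 0.00605% ± 0.00413, SD, n = 3), which is 8.42-fold below CPC-EV and 52.1-fold below hiPSC-EV. Without CMi-EV 2 the mean was 0.00368%. All CMi-EV libraries lay below all CPC-EV libraries. In CMm-EV 1 the share rested on 2 counts (0.000203%), and the absence of counts in CMm-EV 2 and 3 allows up to 4.78e-05% and 5.91e-05%. These limits, and the bounds below, cover counting error only, since reads amplified by PCR without molecular identifiers are not independent molecules. Fewer vesicles from cells that make C19MC and less C19MC RNA per vesicle cannot be told apart in these libraries.

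**Figure D1:**
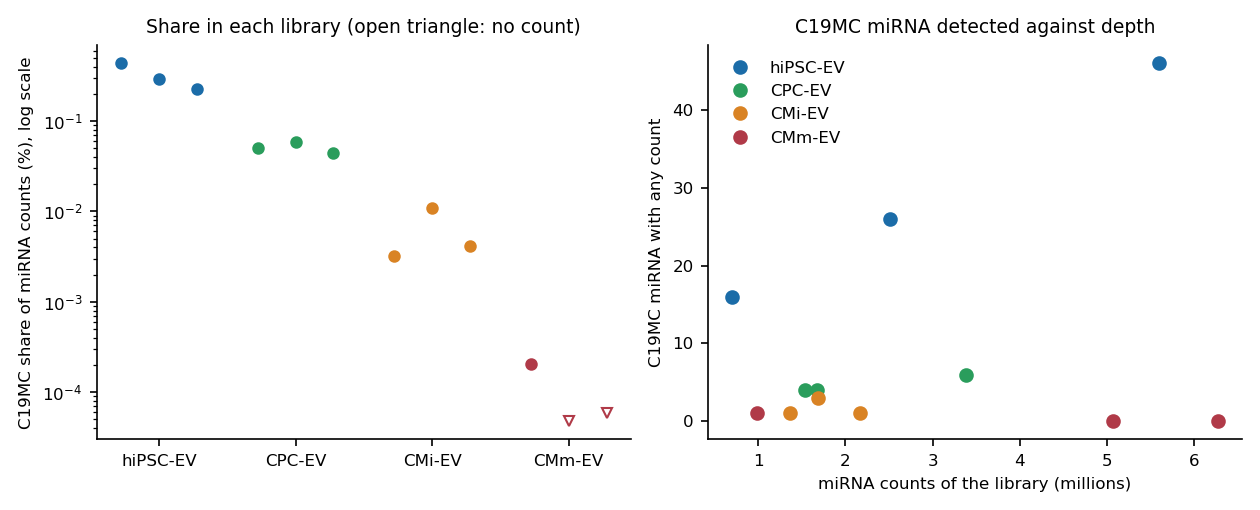
Left, C19MC share of miRNA counts in each of the 12 libraries (percent, log scale; open triangles stand at the limit of 3 counts). Right, number of C19MC rows with any count against the miRNA counts of the library. The share falls from 0.316% on average in hiPSC-EV to 2 counts in CMm-EV 1.

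The 4 miRNA that mark the cluster, miR-512-3p, miR-1323, miR-520a-5p and miR-525-5p, had counts in all hiPSC-EV libraries. Together they made up 76.6% of the C19MC counts of hiPSC-EV. The study lists C19MC miRNA of these names as enriched in hiPSC-EV from the same libraries, so both statements are a description. Levels are given as CPM (counts per 1000000 miRNA counts of a library), scaled over the 12 libraries by TMM (trimmed mean of M-values, which aligns the bulk of the miRNA between libraries).

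miR-1323 was the most abundant member and carried 60.8% of the C19MC counts of hiPSC-EV. Its level was 2375, 1850 and 1541 CPM in hiPSC-EV 1, 2 and 3 and 245, 317 and 139 CPM in CPC-EV. It was 30.5, 31.0 and 41.4 CPM in CMi-EV. In CMm-EV it had 2 counts in library 1 (2.43 CPM) and none in libraries 2 and 3, where 3 counts would be 0.797 and 1.19 CPM. No 2 neighbouring stages overlapped for miR-1323, and it was the sole member with counts in every library of CPC-EV and CMi-EV.

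miR-512-3p, from the hairpins at the start of the cluster, followed with 288, 280.3 and 342 CPM in hiPSC-EV. In CPC-EV it was at 15.4 and 27.2 CPM in libraries 2 and 3 and had no count in library 1 (limit 1.15 CPM). It had no count in CMi-EV or CMm-EV. miR-512-3p thus varied little among the hiPSC-EV libraries and was absent from the counts after CPC-EV.

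miR-516a-5p and miR-516b-5p, close in name, have different seeds. miR-516a-5p was at 192, 185 and 136 CPM in hiPSC-EV and at 50.7, 96.1 and 71.9 CPM in CPC-EV. In CMi-EV it had counts in library 2 alone (42.6 CPM). miR-516b-5p was at 268, 90.2 and 123 CPM in hiPSC-EV, at 14.2 CPM in CPC-EV 1 and at 22.1 CPM in CMi-EV 2, with no count in the other libraries of these later groups. miR-516a-5p was, beside miR-1323, the sole member with counts in all 3 CPC-EV libraries.

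The pair with a shared seed, miR-520a-5p and miR-525-5p, was counted in hiPSC-EV and in none of the 9 later libraries. miR-525-5p was at 27.9, 98.7 and 101.2 CPM in hiPSC-EV, so library 1 was the lowest. miR-520a-5p was at 26.8, 39.8 and 43.4 CPM. A count of 3 would have been between 0.745 CPM in CPC-EV 2 and 3.65 CPM in CMm-EV 1. Both lay above every limit of the later libraries in each hiPSC-EV library.

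miR-526b-5p and miR-518b were seen in part of the CPC-EV libraries. miR-526b-5p was at 82.6, 24.3 and 30.1 CPM in hiPSC-EV and at 17.3 and 34.3 CPM in CPC-EV 1 and 2. These groups overlapped, since CPC-EV 2 exceeded hiPSC-EV 2 and 3. miR-518b was at 53.5, 43.4 and 50.8 CPM in hiPSC-EV and at 13.4 CPM in CPC-EV 2. Neither had a count in CMi-EV or CMm-EV.

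Of the remaining tested members, the joined row of miR-517a-3p and miR-517b-3p averaged 22.9 CPM in hiPSC-EV and had counts in CPC-EV 3 alone among later libraries. Its groups overlapped, since CPC-EV 3 (13.4 CPM) exceeded hiPSC-EV 2 (8.36 CPM). miR-520a-3p averaged 17.6 CPM ± 7.22 (SD, n = 3) in hiPSC-EV and had no count later.

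**Figure D2:**
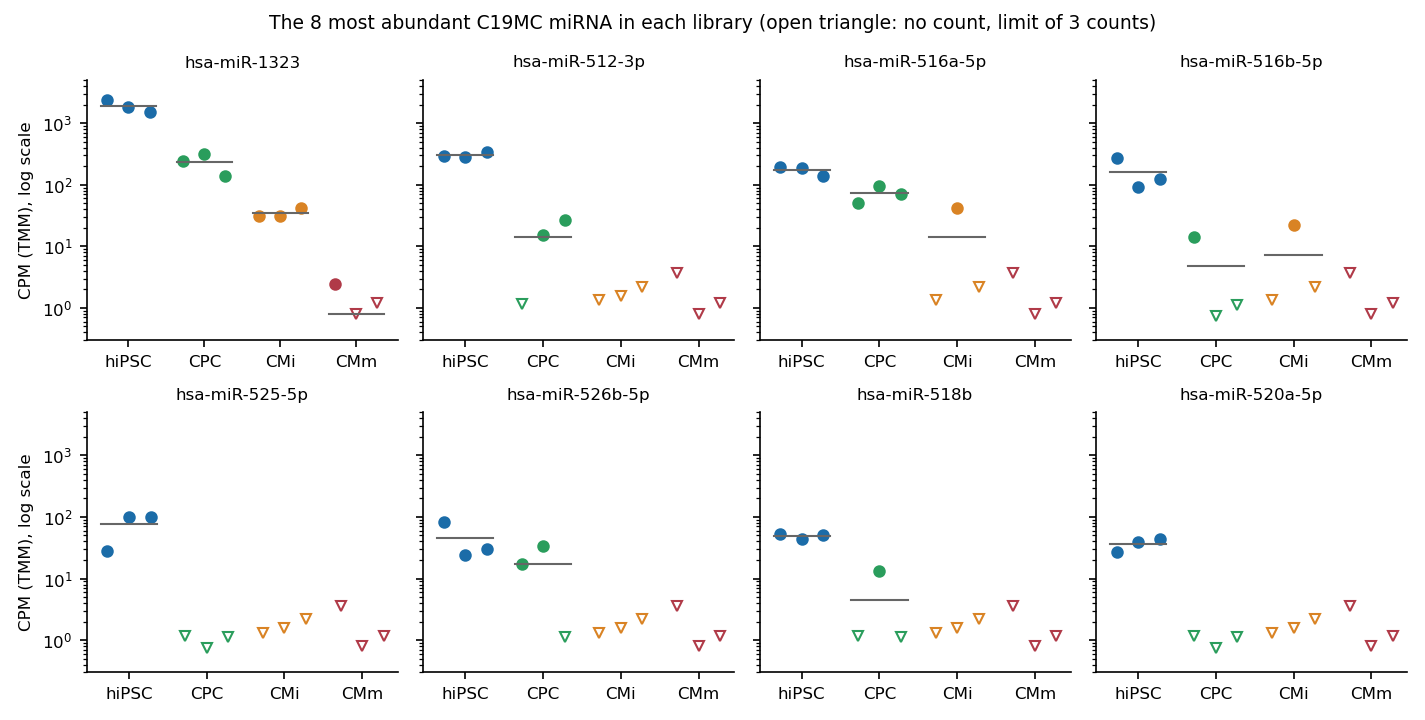
Level of the 8 most abundant C19MC miRNA in each library (CPM scaled by TMM, log scale). Points are libraries, lines are group means and open triangles are libraries with no count, drawn at the limit of 3 counts. miR-1323 steps down at each stage, from 1922 CPM on average in hiPSC-EV to 233.6 CPM in CPC-EV and 34.3 CPM in CMi-EV.

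The comparison of CPC-EV with hiPSC-EV asks what changes when pluripotent cells become cardiac progenitors. miR-1323, miR-512-3p, miR-525-5p, miR-520a-5p and miR-520a-3p were called lower in CPC-EV, where a call needs a false discovery rate (adjusted p) of at most 0.05 and a change of at least 1 on the log2 scale. These are 5 of the 10 members tested (6 by DESeq2), and none was higher by either tool or at an unadjusted p of at most 0.05. Of all 338 miRNA tested, 93 were called (27.5%), and 54 of these were lower (16.0%). A miRNA was tested where it had at least 5 CPM in all 3 libraries of 1 group. Of the 10 members, 8 passed through hiPSC-EV alone and so had to be under 5 CPM in at least 1 CPC-EV library, which is why their count is a description.

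miR-1323 fell by 2.67 on the log2 scale from hiPSC-EV to CPC-EV (SE 0.33, adjusted p = 0.00156, lower in 3 of 3 libraries). miR-512-3p fell by 3.99 (SE 1.11, adjusted p = 0.0465, lower in 3 of 3 libraries). The call of miR-512-3p held in 5 of 14 alternatives, with adjusted p from 1.41e-06 to 0.117. It was lost without hiPSC-EV 1 (adjusted p = 0.103), hiPSC-EV 2 (0.0942), hiPSC-EV 3 (0.117), CPC-EV 2 (0.113) or CPC-EV 3 (0.0606). It was also lost with median-of-ratios factors (0.0560), library size alone (0.0557), filterByExpr (0.0587) and all 12 libraries in 1 fit (0.114). In the fits that lost the call, the log2 fold change lay between -3.81 and -4.92. miR-1323 thus had the steadier call of these abundant members.

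miR-525-5p was at least 75.6-fold lower in CPC-EV (adjusted p = 0.00579), as measured against a limit of 3 counts in each library. miR-520a-5p was at least 36.5-fold lower (adjusted p = 0.00623) and miR-520a-3p at least 17.5-fold lower (adjusted p = 0.00935). The call of miR-520a-3p was lost with no filter on low counts (adjusted p = 0.161; 4.85e-05 to 0.161 over 14 alternatives). Few detected miRNA had counts near 3 in these libraries. The 10th percentile of their non-zero counts was 17.5, 13 and 25 in CPC-EV 1, 2 and 3. Measured against a floor chosen after seeing the data, the 10th percentile of a library or 3 counts where that is higher, miR-525-5p was at least 11.8-fold, miR-520a-5p at least 5.71-fold and miR-520a-3p at least 2.74-fold lower.

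The other 5 tested members did not pass. The log2 fold change of miR-516b-5p was -4.67 (SE 1.62, adjusted p = 0.104), and it was called without CPC-EV 1 (adjusted p = 0.00672), with DESeq2 (0.0341) and with no filter on low counts (5.85e-05), with adjusted p from 5.85e-05 to 0.263 over 14 alternatives. For miR-518b it was -3.15 (SE 1.66, adjusted p = 0.254), and the call came without CPC-EV 2 (adjusted p = 0.0135; 0.0135 to 0.402 over 14 alternatives). For the joined row of miR-517a-3p and miR-517b-3p it was -1.89 (SE 1.83, adjusted p = 0.531), with a call without CPC-EV 3 (adjusted p = 0.0256; 0.0256 to 0.729 over 14 alternatives). In each of these 3 rows, the library left out was the sole CPC-EV library with counts. The log2 fold change was -0.84 for miR-516a-5p (SE 0.45, adjusted p = 0.237) and -1.12 for miR-526b-5p (SE 1.48, adjusted p = 0.645). Without hiPSC-EV 1, the library of the lowest depth, 11 of 18 tested members were called (129 of all 411 tested miRNA), since 8 more rows with no count there could then be tested, all of them through hiPSC-EV alone.

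From CPC-EV to CMi-EV, when progenitors become beating cardiomyocytes, miR-1323 fell again. It fell by 2.78 on the log2 scale (SE 0.46, adjusted p = 0.00506, lower in 3 of 3 libraries). It was 1 of 2 members tested, and 83 of all 292 tested miRNA were called (28.4%), 41 of them lower (14.0%). miR-516a-5p, the other, changed by -2.38 on the log2 scale (SE 1.90, adjusted p = 0.425). It was called without CMi-EV 2, the sole CMi-EV library with its counts (adjusted p = 0.0104; 0.0104 to 0.620 over 14 alternatives). Without CPC-EV 1, 2 of 3 tested members were called (80 of all 312 tested miRNA), as without CPC-EV 3 (102 of all 343), and the added member passed the filter through CPC-EV alone. miR-512-3p was at least 8.38-fold lower in CMi-EV and miR-526b-5p at least 10.2-fold lower, and neither passed the filter for a test. Both miRNA had counts in 2 of the CPC-EV libraries. Without CPC-EV 3 the bound of miR-512-3p was 4.55-fold, and without CPC-EV 1 it was 12.6-fold. Without CPC-EV 2 the bound of miR-526b-5p was 5.11-fold. Against the floor of 10th percentiles, the bounds of all libraries shrank to 1.40-fold and 1.69-fold.

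From CMi-EV to CMm-EV, across maturation, miR-1323 was the sole member tested and was called lower (adjusted p = 0.0466), where 41 of 247 tested miRNA were called (16.6%), 25 of them lower (10.1%). It passed the filter through CMi-EV alone. With 185 counts in CMi-EV and 2 in CMm-EV, the ratio of its pooled CPM was 119 (95% Clopper-Pearson interval 32.4 to 988). Such an interval covers counting error only, not the spread between libraries. The ratio of its mean CPM was 42.3, since both CMm-EV counts lie in the library of the lowest depth in that group. The call held in 6 of 14 alternatives, with adjusted p from 0.00019 to 0.363, and it was lost without each of CMi-EV 1, CMi-EV 2, CMi-EV 3, CMm-EV 2 and CMm-EV 3 (0.0864 to 0.120). It was also lost with median-of-ratios factors (0.0509), filterByExpr (0.201) and no filter on low counts (0.363). The log2 fold change was -6.18 in the main fit and between -5.27 and -6.11 where the call was lost. miR-516a-5p and miR-516b-5p, seen in CMi-EV 2, had no count in CMm-EV, which puts the CMm-EV mean at least 7.57-fold and 3.92-fold lower (3.68-fold and 1.91-fold against the floor of 10th percentiles, which is 3 counts in CMm-EV 1). Both bounds rest on CMi-EV 2, since CMi-EV 1 and 3 had no count of either. Without CMm-EV 1, which has the highest limit, they were 14.3-fold and 7.43-fold. With 308 C19MC counts in the 3 CMi-EV libraries together, a further change was not detectable for most members at this depth.

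Across the whole course, CMm-EV against hiPSC-EV, all 10 tested members were lower and called. Of all 336 tested miRNA, 180 were called (53.6%), 126 of them lower (37.5%). All 10 members passed the filter through hiPSC-EV alone. The ratio of miR-1323 between hiPSC-EV and CMm-EV was 6144 in pooled CPM (95% Clopper-Pearson interval 1700 to 50737, for counting error only) and 2370 in mean CPM. miR-512-3p was at least 162-fold lower, miR-516a-5p at least 91.1-fold, miR-516b-5p at least 85.5-fold and miR-525-5p at least 40.5-fold. Against the floor of 10th percentiles (3 counts in CMm-EV 1), these bounds were 78.6-fold, 44.3-fold, 41.6-fold and 19.7-fold. Without hiPSC-EV 1 the bound of miR-516b-5p was 56.8-fold and that of miR-526b-5p 14.5-fold. Without CMm-EV 1, which has the highest limit, the bounds were higher, at 306-fold for miR-512-3p. The bounds of the other 5 tested members ran from 9.37-fold for miR-520a-3p to 26.2-fold for miR-518b. The size of these bounds follows the level in hiPSC-EV, since CMm-EV held no count to measure. Without hiPSC-EV 1, 18 of 18 tested members were called (217 of all 415 tested miRNA), and with no filter on low counts 16 of 47 (207 of all 1018).

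The scaling moved the median change (log2) over the tested miRNA. In CMm-EV against hiPSC-EV it was -1.53 with TMM, -1.20 with median-of-ratios factors and -1.97 with library size alone. In CMm-EV against CMi-EV it was -0.30, -0.20 and -0.91, and in CMi-EV against CPC-EV -0.05, -0.03 and -0.52. In CPC-EV against hiPSC-EV it was -0.27, -0.15 and -0.10. The changes of miR-1323 exceeded these shifts in each comparison.

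**Figure D3:**
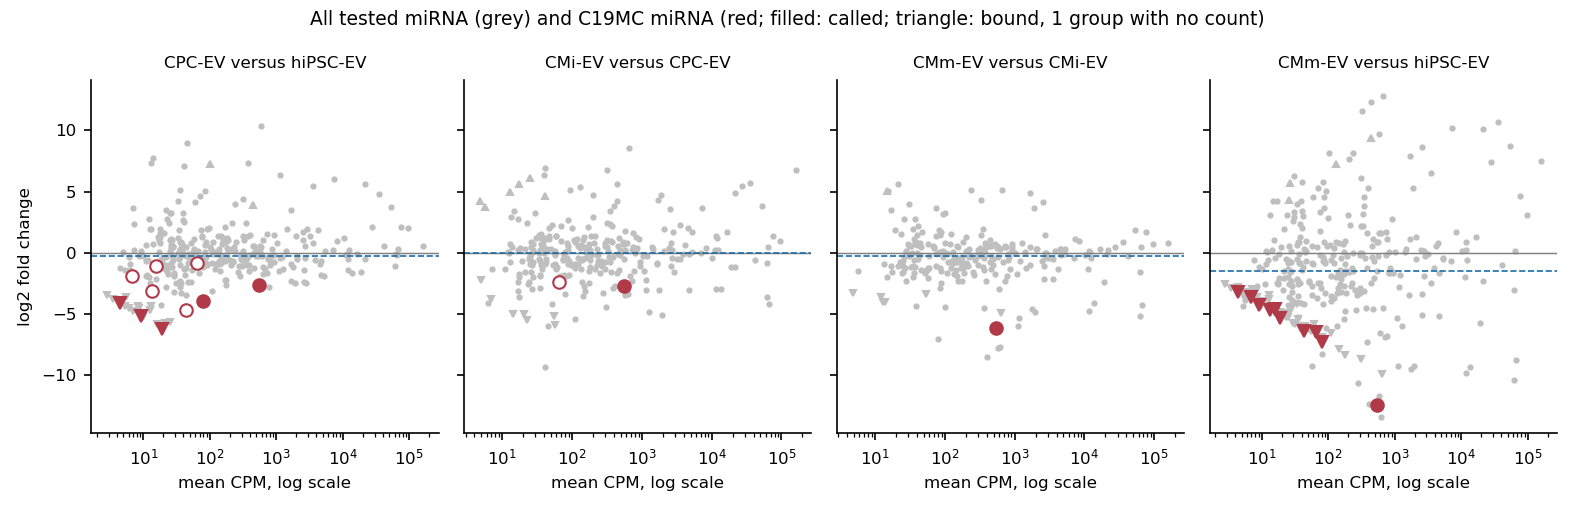
Log2 fold change against mean CPM over the 12 libraries (log scale) for all tested miRNA (grey) and C19MC miRNA (red; filled where called) in the 4 comparisons. Triangles are bounds where 1 group had no count, and the dashed line is the median of all tested miRNA. Of the 10 C19MC members tested in CPC-EV against hiPSC-EV, 5 are called.

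The 38 members that passed no filter held 9.11% of the C19MC counts of hiPSC-EV. Their hiPSC-EV means ran from 0.0237 to 23.6 CPM, and their highest count in a library was 165. Of all 48 members, 40 had counts in hiPSC-EV alone. In 17 rows, hiPSC-EV 3 was the sole library with counts, at most 28 of them. In 13 rows the counts lay in hiPSC-EV 2 and 3 and not in hiPSC-EV 1. Of the 38 untested members, only miR-518c-3p had a count in a later group (54 counts in CPC-EV 2), and it is named here because of that value. The weaker C19MC miRNA were thus seen mainly in hiPSC-EV 2 and 3. Apart from the random draw of counts given above, the part of depth in this was not tested.

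The 2 arms of the C19MC hairpins differed in counts, with no common side. Both arms were recorded for 10 hairpin families in rows that join no names, of which 5 had more 5p and 5 more 3p counts in hiPSC-EV. The miR-512 hairpins gave 2552 counts of miR-512-3p and 60 of the 5p arm, a ratio of 42.5. The miR-526b hairpin gave 273 counts of miR-526b-5p and 2.25 of the 3p arm. For miR-520a the arms were closer, with 23, 100 and 203 counts of miR-520a-5p in hiPSC-EV 1, 2 and 3 and 21, 46 and 47 of miR-520a-3p. For miR-512, miR-526b and miR-518c, only the higher arm was still counted after hiPSC-EV (135, 183 and 54 counts).

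The cluster spans chr19:53666679-53762430 (95.8 kb, hg38, plus strand), with 46 hairpin loci in the reference. All 46 lie within the long noncoding RNA gene ENSG00000269842 (chr19:53648055-53764199, GENCODE v44), 44 in its introns and 2 overlapping its exons. The 2 most abundant members lie at the start. The miR-1323 sequence is at chr19:53671978-53671999, and miR-512-3p is encoded at chr19:53666729-53666750 and chr19:53669213-53669234. miR-520a-5p (chr19:53690895-53690915), miR-526b-5p (chr19:53694406-53694428), miR-525-5p (chr19:53697547-53697567) and miR-518b (chr19:53702787-53702808) follow within a short stretch. miR-516b-5p is encoded further on, at chr19:53725457-53725478 and chr19:53736860-53736881, and miR-516a-5p near the end, at chr19:53756756-53756778 and chr19:53761148-53761170. The 171 CPM of miR-516a-5p in hiPSC-EV and its 72.9 CPM in CPC-EV show that level did not simply decline along the cluster. Of 46 members with a position, 18 map to more than 1 hairpin, so their level cannot be assigned to a locus.

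**Figure D4:**
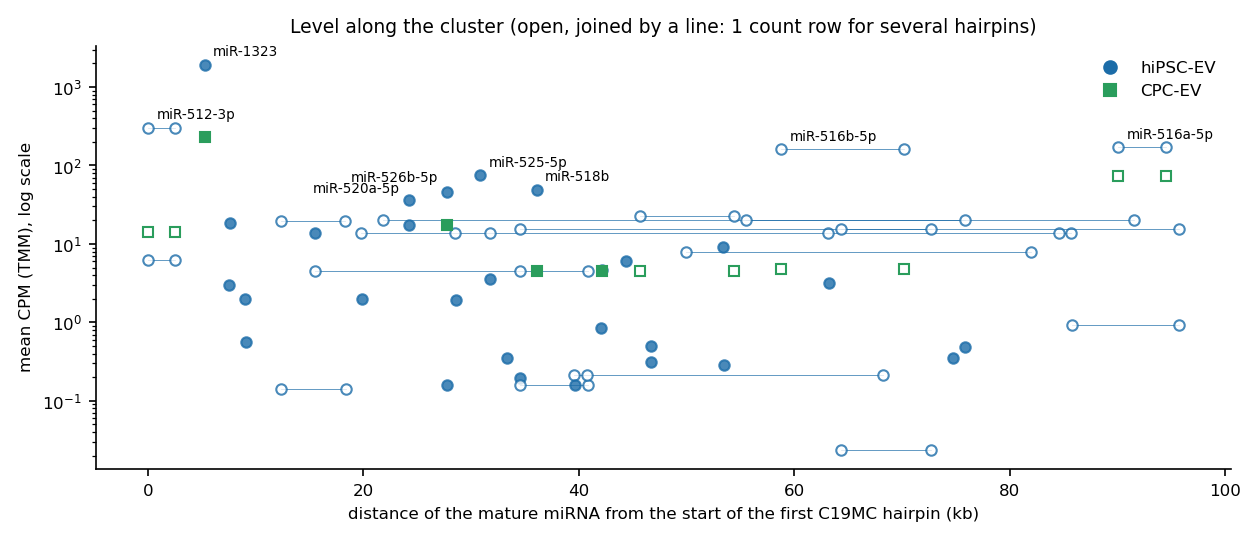
Mean level of C19MC miRNA (CPM scaled by TMM, log scale) against distance from the start of the first hairpin (kb), in hiPSC-EV (circles) and CPC-EV (squares). Open symbols joined by a line are 1 count row for several hairpins. miR-1323 and miR-512-3p lie at the start of the cluster and miR-516a-5p near its end.

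The 46 members with a sequence had 29 seeds, and 10 seeds were shared by at least 2 of them. Only 4 of the 29 seeds were found in rows outside C19MC, in 15 rows. The seed of miR-520a-3p was held by 6 C19MC rows, which summed to 23.3 CPM ± 1.08 (SD, n = 3) in hiPSC-EV. The 7 rows of that seed outside the cluster, led by miR-302b-3p, summed to 186934 CPM, so C19MC supplied 0.0124% of this seed. In CPC-EV the C19MC rows of the seed had no count, while the outside rows summed to 66070 CPM. For miR-1323 the relation was the other way round. Its seed had 1 row outside C19MC, and miR-1323 supplied 99.3% of the summed CPM of the seed in hiPSC-EV, 97.8% in CPC-EV and 77.6% in CMi-EV. In these later groups the outside row had counts only in CPC-EV 2 (16.0 CPM) and CMi-EV 3 (29.8 CPM). The seeds of miR-512-3p, miR-516a-5p, miR-516b-5p and of the pair miR-520a-5p and miR-525-5p were in no counted row outside C19MC for which a sequence was at hand.

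**Figure D5:**
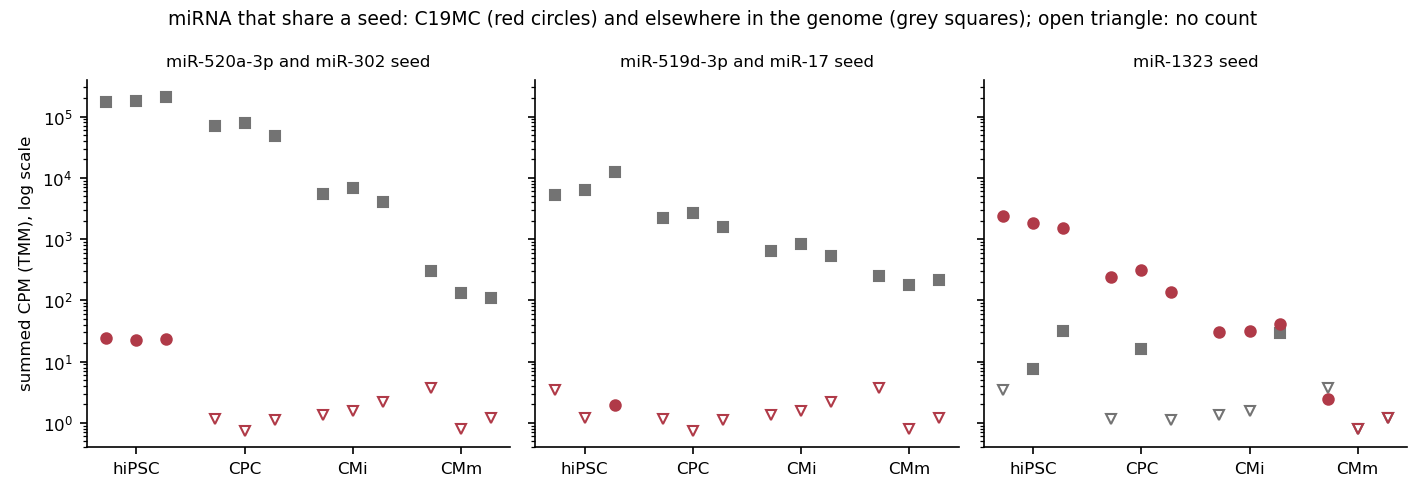
Summed level of miRNA with a shared seed in each library (CPM scaled by TMM, log scale), in C19MC (red circles) and elsewhere (grey squares), for the seeds of miR-520a-3p, miR-519d-3p and miR-1323. Open triangles are libraries with no count. Outside rows dominate the miR-520a-3p seed (186934 CPM in hiPSC-EV), and C19MC dominates that of miR-1323.

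Of the 15 rows outside C19MC that share a seed with a member, 13 were tested in CPC-EV against hiPSC-EV, and 6 were lower and none higher (5 lower by DESeq2 and 7 by the exact test; 16.0% of all tested miRNA were lower). In CMi-EV against CPC-EV, 6 of 13 were lower (9 by DESeq2 and by the exact test; 14.0% of all), in CMm-EV against CMi-EV 2 of 8 (4 by DESeq2 and by the exact test; 10.1% of all), and in CMm-EV against hiPSC-EV 12 of 12 (37.5% of all). At least 2 of these 12 had no count in CMm-EV, and miR-302d-3p averaged 0.405 CPM there. These, and possibly more of the 12, passed the filter through hiPSC-EV alone, so the count of 12 is a description. miR-302b-3p, the most abundant, fell by 1.11 on the log2 scale from hiPSC-EV to CPC-EV (SE 0.18, adjusted p = 0.00463). miR-1323 fell by 2.67, and the difference between these changes was not tested. The log2 fold changes of miR-302c-3p, miR-20a-5p and miR-106a-5p were -1.20 (SE 0.27), -1.50 (SE 0.34) and -1.67 (SE 0.32), and all were called. Relative to miR-302b-3p, C19MC members of the same seed were faint in hiPSC-EV, and they had no count in the later groups.

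The miR-371 to miR-373 hairpins lie 25.2 kb beyond the last C19MC hairpin and are known from pluripotent cells. Of their 7 rows, 3 were tested in CPC-EV against hiPSC-EV and none was called by edgeR, by DESeq2 or by the exact test, and with TMM 0 had an unadjusted p of at most 0.05. Of all tested miRNA 27.5% were called, so 0 of 3 says little about these hairpins. miR-371a-5p, the most abundant, was at 1120 CPM ± 446 (SD, n = 3) in hiPSC-EV and 1110 CPM ± 125 in CPC-EV on the scale of 12 libraries. In the fit, with TMM within the 6 libraries, its log2 fold change was 0.42 (SE 0.28, adjusted p = 0.316). Its unadjusted p was 0.170 there, 0.0443 with median-of-ratios factors (log2 fold change 0.56) and 0.0333 with library size alone (0.59). For miR-372-3p the log2 fold change was 0.89 (SE 0.52, adjusted p = 0.267). The difference between these changes and those of C19MC was not tested. From CPC-EV to CMi-EV, miR-371a-5p fell by 3.44 (SE 0.25, adjusted p = 0.000305).

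Of the sums of cell type markers, only that of the pluripotency miRNA fell on average at each stage, as the C19MC share did. The part of these markers in the share was not tested. The 8 pluripotency miRNA summed to 172361, 178327 and 210765 CPM in hiPSC-EV, 70799, 78963 and 48705 CPM in CPC-EV, 5451, 6768 and 4007 CPM in CMi-EV, and 303, 133 and 110.2 CPM in CMm-EV. miR-302b-3p was their most abundant miRNA in each group, and 6 of the 8 also share a seed with a C19MC row. In CMm-EV, miR-367-3p, miR-371a-3p, miR-372-3p and miR-373-3p were at 0. Of 7 tested, 2 were called lower in CPC-EV against hiPSC-EV (1 by DESeq2; 16.0% of all tested miRNA were lower) and 4 of 7 in CMi-EV against CPC-EV (14.0% of all). Most of the sum was miR-302b-3p, at 179206 CPM on average in hiPSC-EV and 62616 CPM in CPC-EV. From hiPSC-EV to CPC-EV the mean of each miR-302 3p row of the list (302a to 302d) was lower. Other members were higher on average in CPC-EV: miR-372-3p (178 and 259 CPM), miR-373-3p (23.2 and 39.1 CPM) and miR-371a-3p (6.33 and 12.5 CPM). The C19MC share thus lay with this sum, not with each of its miRNA, in order of stages.

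The 6 cardiomyocyte miRNA, led by miR-1-3p, ran the other way. They summed to 65.1, 46.6 and 69.6 CPM in hiPSC-EV, 758, 859 and 1522 CPM in CPC-EV, 52719, 75731 and 20830 CPM in CMi-EV, and 37883, 51523 and 208727 CPM in CMm-EV. miR-208b-3p was at 0 in hiPSC-EV and CPC-EV, and miR-499a-5p in CPC-EV. In CMi-EV against CPC-EV, 4 of 4 tested were higher (14.4% of all tested miRNA were). Of these, miR-208a-3p averaged 5.64 CPM ± 9.76 (SD, n = 3) in CPC-EV and so passed the filter through CMi-EV alone, and the count is a description. In CMm-EV against CMi-EV none of 6 was called by edgeR (0 at an unadjusted p of at most 0.05) or by DESeq2. Of all tested miRNA 16.6% were called there, so 0 of 6 says little.

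Of 5 blood and serum miRNA, 4 were in the table (miR-223-3p was not), with miR-486-5p the most abundant in each group. They summed to 5316, 7159 and 8699 CPM in hiPSC-EV, 942, 859 and 1154 CPM in CPC-EV, 2056, 2085 and 729 CPM in CMi-EV, and 832, 772 and 877 CPM in CMm-EV. miR-486-5p, the sole row of this list that was tested, was called lower in CPC-EV against hiPSC-EV, as was miR-1323. Of all tested miRNA 16.0% were lower there. The untested rows went both ways from hiPSC-EV to CPC-EV. miR-451a averaged 3.17 and 23.8 CPM, miR-144-3p 0 and 3.48 CPM, and miR-150-5p 27.1 and 0 CPM. miR-144-3p was at 0 in hiPSC-EV, CMi-EV and CMm-EV, and miR-451a in CMi-EV. miR-150-5p was at 0 in all later groups.

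The 4 endoderm and liver miRNA summed to 1304, 1825 and 2255 CPM in hiPSC-EV, 6964, 8880 and 6314 CPM in CPC-EV, 3770, 3476 and 7231 CPM in CMi-EV, and 2800, 2246 and 4467 CPM in CMm-EV. miR-375-3p was the most abundant of them in CPC-EV and miR-192-5p in the other groups, and none was at 0 in a group. In CPC-EV against hiPSC-EV, 3 of 4 were higher, beside 11.5% of all tested miRNA. Of these, miR-122-5p averaged 0.427 CPM ± 0.740 (SD, n = 3) in hiPSC-EV and so passed the filter through CPC-EV alone, and the count is a description.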

How the data were processed

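Expected counts per miRNA, deposited by the authors, came from the exceRpt pipeline on hg38, which shares reads among matching miRNA. RPM deposited by the authors gave the library totals. Expected counts deposited by the authors for GENCODE transcripts gave 0 rows named for a C19MC hairpin. Counts were rounded for the fits, since 9.11% of values above 0 carried a fraction. The quasi-likelihood F-test of edgeR 4.0.16 (R 4.3.3) was two-sided, with TMM within the 6 libraries of a comparison. FDR was adjusted over all tested miRNA, never over the members. CPM used TMM over 12 libraries, with factors from 367 expressed miRNA. Named with values were the members tested in at least 1 comparison and the 4 markers, and of other lists the 4 rows of highest mean CPM. Folds against a group with no count use the mean limit of 3 counts per library. The 14 alternatives of a test were other scalings, filters and tests (DESeq2 1.42.0, exact test), dispersions from 12 libraries, unrounded counts and each library left out. A term for replicate number was a further alternative, given in the closing section alone. The members and lists were chosen with earlier results of these data known. miR-375 of the endoderm list was matched as miR-375-3p. The fits were tested on simulated counts. Python 3.11.15, scipy 1.17.1 and matplotlib 3.10.9 made the tables and figures.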

Additional observations from a re-analysis of the deposited data

Results flagged for a closer look

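Counts named for C19MC hairpins also lay in rows outside the member names. A row named hsa-miR-517-5p, with no letter for its hairpin, had 30 counts in hiPSC-EV 2 and 40 in hiPSC-EV 3. A row named for the hairpin hsa-mir-516b-2 had 8.5 counts in hiPSC-EV 1. These values stand out because no comparison used them and they exceed the 3 counts that a count of 0 allows.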

How the results depend on the processing

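With a replicate block (replicate number as a term of the fit), 39 of 338 tested miRNA were called in CPC-EV versus hiPSC-EV. It was 17 of 247 in CMm-EV versus CMi-EV and 137 of 336 in CMm-EV versus hiPSC-EV. C19MC members called were 1 of 10 (miR-1323), 0 of 1 and 6 of 10 in the same order. The block is not among the 14 alternatives counted above. Whether same-numbered libraries come from the same differentiation run is not stated. Their deviations from the group means correlated at -0.11 to 0.08 across miRNA, which cannot settle how the cultures were run. In CMm-EV versus CMi-EV, filterByExpr gave 27 called miRNA, and the call of miR-1323 was lost (0 members) with median-of-ratios factors, with no filter and with filterByExpr. With no filter, 16 members were called in CMm-EV versus hiPSC-EV.

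With each library left out, members called ran from 5 to 11 in CPC-EV versus hiPSC-EV, 1 to 2 in CMi-EV versus CPC-EV, 0 to 1 in CMm-EV versus CMi-EV and 10 to 18 in CMm-EV versus hiPSC-EV. All miRNA called ran from 75 to 129, 72 to 102, 20 to 60 and 153 to 217 in the same order. More miRNA passed the filter in each of these fits than with all libraries.

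As a percent of the library total, the C19MC share was 0.164% in hiPSC-EV and 0.0227% in CPC-EV. As a percent of the miRNA counts, without miR-1323, it was 0.114% and 0.0176%, and in CMi-EV 0.00243%, from CMi-EV 2 alone. Among 322 alternative fold changes of named members, with the block set apart, 18 lost and 6 gained a call. The cause of the other changes was not tested. Depth limits what can be said of members with no count, and 3 libraries a group limit the tests.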
